A study of Xenopus laevis with 27 samples.

Results

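Heat shock proteins and endoplasmic reticulum (ER) chaperones fold, hold and release other proteins, and their genes were followed here while the clawed frog Xenopus laevis regrew a cut tail. The genes were taken from the count table by symbol. They begin with hsp and a letter or digit (hspg2, a matrix proteoglycan, was dropped), with dnaj, or with bag or pdia and a digit, and xbp1, atf4, atf6, ddit3, calr and canx were added. The rule used no measured value, though it was chosen with earlier results of these data known, and it gave 135 of 29776 genes. Xenopus laevis carries a duplicated genome, and a symbol ends in .L for the copy on the long chromosome of a pair and in .S for that on the short one. Genes were classed by where the protein is known to work. Factors of the unfolded protein response, which act in the nucleus, were put with the ER for their pathway. This gave 82 cytosolic or nuclear genes, 38 ER genes (chaperones, protein disulfide isomerases and these factors) and 15 mitochondrial genes. A filter on low counts passed 120 of the 135, made up of 69 cytosolic, 37 ER and 14 mitochondrial genes, and the other 15 were not tested.

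RNA was sequenced in bulk at 9 times after amputation to describe how expression changed during regrowth of the tail. The groups were amputated tails at 0, 30, 60 and 90 minutes (mpa), at 3 and 6 hours (hpa) and at 1, 3 and 7 days (dpa), and 0 mpa served as the baseline. Each time had 3 libraries, A to C (n = 3), each made from the total RNA of 20 pooled embryos. The labels call them biological triplicates without naming separate clutches for them, and a p-value here measures no more than the spread among such libraries, which may be technical. No strain or genotype is given, and the stage is given as regenerative. No uncut tails of matching age are compared here, so time after the cut and ordinary development cannot be told apart.

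Cytosolic Hsp70 works in a cycle: J-domain proteins (the dnaj genes) bring it clients and start its ATPase, and BAG proteins and Hsp110 release the client again. Small heat shock proteins hold unfolding proteins, and heat shock factor 1 raises many of these genes under stress. In the ER, unfolded proteins act through the sensors Ire1, Perk and Atf6, whose signals reach the nucleus as spliced Xbp1, Atf4 and cleaved Atf6, and genes for ER chaperones and disulfide isomerases are among their known targets. Gene counts do not show the splicing of xbp1 or the cleavage of Atf6.

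The total count of 24 libraries was 4186706 to 6332675. It was 1207557 for 6 hpa C, 367958 for 90 mpa C and 19187 for 7 dpa C. Libraries 1 dpa B (17532 genes with a read) and 3 dpa B (19983) held few genes for their depth. These 5 libraries are called the shallow or low-complexity libraries, and for the genes described many results are also given without them. In that fit 90 mpa, 6 hpa, 1 dpa, 3 dpa and 7 dpa each have 1 library fewer than n = 3. Its results at those times rest on fewer libraries than those of the main fit. The chaperone genes took between 0.873% and 1.44% of the counts of a library. The tail's own tissues were present: summed over 23 muscle marker genes, 22 of them tested, the level at 0 mpa was 141300 to 239600 CPM (a gene's share of the TMM-scaled library total, times 1000000). That sum fell to 51550 to 88920 CPM at 1 dpa, 21240 to 37430 at 3 dpa and 6367 to 9298 at 7 dpa, with 17, 21 and 21 of the 22 genes lower by test. The lowest sum at 7 dpa was that of 7 dpa C. Its TMM factor was 3.01, beside 0.76 to 1.31 in the other libraries, which lowers every CPM value of that library. Epidermal markers summed to 1682 to 2052 CPM at 0 mpa and 3676 to 4660 at 6 hpa (7 of 9 genes higher), and leukocyte markers to 248.5 to 343 and 694.8 to 1072 CPM (4 of 14 higher). In bulk RNA, fewer cells of a type and less RNA per cell cannot be told apart.

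Over the 9 times jointly, 15 of the 120 genes (12.5%) changed by edgeR's quasi-likelihood test with Benjamini-Hochberg adjustment, against 15.8% of all 22268 genes tested. At 30 mpa edgeR called 0 of 120 (background 0.377%), DESeq2 also 0, and the unadjusted p was under 0.05 for 2 (3.7% of all genes). The calls of the next hours were all higher than 0 mpa. They numbered 4 at 60 mpa (1.15% of all genes were higher), 5 at 90 mpa (2.62% higher and 3.38% changed either way), 6 by 3 hpa (3.12% and 3.43%) and 4 by 6 hpa (3.33% and 3.66%). After 1 day 2 genes were higher and 1 lower, with 2.99% and 1.58% of all genes and 4.56% together. After 3 days 2 were higher and 5 lower (4.24% and 4.98%, together 9.22%), and after 7 days 2 and 4 (2.63% and 5.31%, together 7.94%). The 8 comparisons share the 0 mpa libraries. In all, 18 of the 120 genes (15%) were called in any of these tests, against 19.6% of all genes, and 102 in none. Of the 18, 13 were cytosolic, 2 ER and 3 mitochondrial. The 2 of the ER class, xbp1.L and ddit3.S, are both factors of the unfolded protein response. By family, with the same background of 19.6%, the called genes were 4 of 8 BAG genes, 3 of 7 small heat shock genes, 3 of 15 dnajb genes, 2 of 8 unfolded protein response factors, 2 of 16 Hsp70 genes and 1 each of 8 dnaja, 35 dnajc, 2 Hsp110 and 4 Hsp60 or Hsp10 genes. No tested gene of the Hsp90 family (3), the lectin chaperones calr and canx (4) or the disulfide isomerases (8) was called by edgeR; DESeq2 called hsp90b1.S jointly. Without the 5 shallow or low-complexity libraries, 28 of 123 genes changed jointly (background 27.2%), 14 of the 15 among them. Of the 14 genes that joined them, hspa9.L, hspb8.L and hsph1.S had been called at a time, and the other 11 in no test. Those were atf4.L, calr.S, dnajb9.S, hspa8.L, pdia5.S and xbp1.S, together with dnajb2.L (adjusted p = 0.0141), dnajc7.L (0.000952), dnajc18.S (0.0166), the Hsp70 relative hspa12b.L (0.000807) and the muscle small heat shock gene hspb7.L (0.0023).

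**Figure D1:**
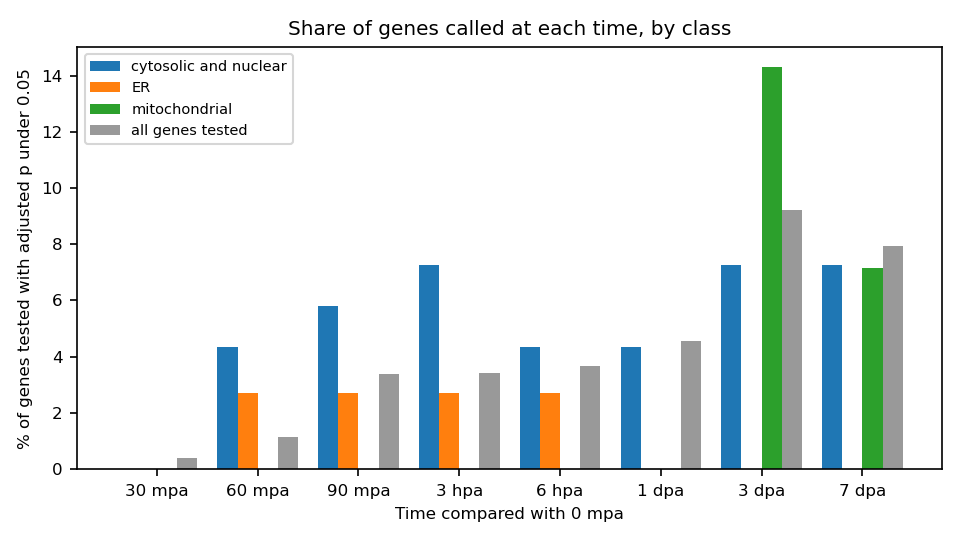
Percent of tested genes with an adjusted p under 0.05 at each time against 0 mpa, for the cytosolic (69), ER (37) and mitochondrial (14) chaperone genes and for all 22268 genes (grey). Every call of the ER class is that of the response factor gene xbp1.L. The cytosolic share at 3 hpa was 7.25% and that of all genes 3.43%; at 3 dpa the mitochondrial share, 2 of 14 genes, was 14.3% and that of all genes 9.22%.

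**Figure D2:**
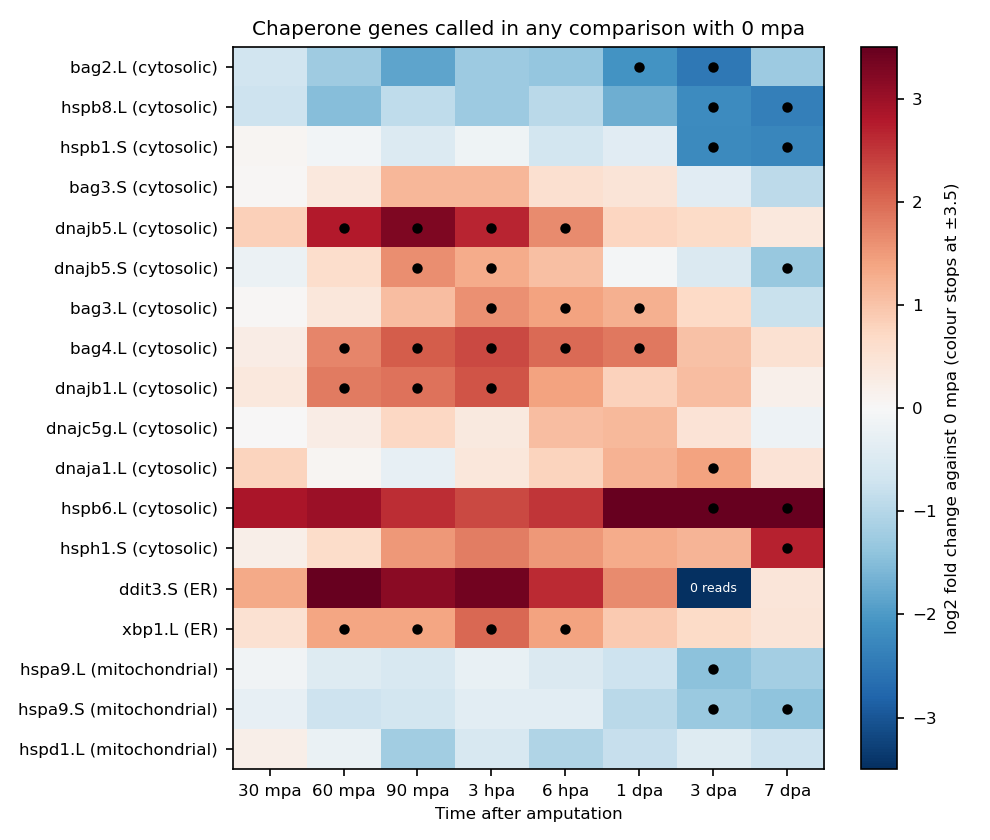
Fitted log2 fold change against 0 mpa (colour, red higher and blue lower) of the 18 called genes at the 8 later times; a black dot marks an adjusted p under 0.05. Dots of higher calls lie between 60 mpa and 1 dpa for most genes. They lie at 3 dpa for dnaja1.L, at 3 and 7 dpa for hspb6.L and at 7 dpa for hsph1.S. Dots of lower calls lie between 1 and 7 dpa, among them that of dnajb5.S at 7 dpa. The 4 genes without a dot passed the joint test alone, and for hspb6.L and ddit3.S the colours rest on few reads.

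The J-domain protein dnajb5.L, an Hsp40 partner of Hsp70, had the largest rise of the genes called up to 6 hpa. Its level was 14.6, 12.1 and 4.52 CPM in the 3 libraries at 0 mpa, 17.3, 15.9 and 22.3 at 30 mpa, and 78.7, 71.5 and 64.4 at 60 mpa. It reached 72.8, 118 and 109 CPM at 90 mpa, and was 66.3, 71.3 and 60.9 at 3 hpa and 35.6, 22.6 and 42.5 at 6 hpa. From 60 mpa to 6 hpa every library lay above all 3 at 0 mpa. The log2 fold change was 2.78 ± 0.44 (SE) at 60 mpa (adjusted p = 1.03e-05), 3.25 ± 0.45 at 90 mpa (3.84e-07), 2.67 ± 0.44 at 3 hpa (1.24e-05) and 1.66 ± 0.44 at 6 hpa (0.0144). The calls from 60 mpa to 3 hpa stood in each of 6 fits that left out 1 library, and that at 6 hpa was lost without 0 mpa C (0.168), 6 hpa A (0.056) or 6 hpa C (0.0652). The step from 30 to 60 mpa itself passed (1.95 ± 0.42, adjusted p = 0.0134, with 0.189% of all genes called). By 1 dpa the level was back at 15.8, 18.9 and 17.7 CPM, lower than at 3 hpa by a log2 difference of -1.92 ± 0.42 (adjusted p = 0.0033, a comparison chosen after the values were seen, which called 1.87% of all genes).

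Its other copy, dnajb5.S, was at 28.3, 32.7 and 27.8 CPM at 0 mpa and was first called at 90 mpa. The libraries read 44.5, 37.4 and 54.4 CPM at 60 mpa, 67.5, 83 and 136 at 90 mpa and 67, 73.5 and 76.3 at 3 hpa, the highest value being that of the shallow 90 mpa C. The groups did not overlap at any of these times. The log2 fold change was 1.63 ± 0.37 at 90 mpa (adjusted p = 0.00345) and 1.29 ± 0.36 at 3 hpa (0.023), and the second call was lost without any 1 of the 6 libraries (0.0615 to 0.123). At 7 dpa it was lower than at 0 mpa, with 13.4, 9.99 and 17.3 CPM (-1.32 ± 0.41, adjusted p = 0.0332). That fall held without 7 dpa C, whose value rests on few reads, but not without 0 mpa A (0.068), 0 mpa B (0.106), 0 mpa C (0.0641), 7 dpa A (0.134) or 7 dpa B (0.344).

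Of the stress-inducible Hsp40, dnajb1.L, the level was 14.9, 5.54 and 17 CPM at 0 mpa and 37.3, 52.5 and 41.7 at 60 mpa. At 3 hpa it was 72.9, 57.5 and 42.4 CPM, above every 0 mpa library. At 90 mpa libraries A and B read 72.8 and 50.1 CPM and the shallow C 3.02, so that the groups overlapped there. On the log2 scale it rose by 1.81 ± 0.48 at 60 mpa (adjusted p = 0.0368), 1.91 ± 0.48 at 90 mpa (0.0134) and 2.20 ± 0.48 at 3 hpa (0.00178). Leaving out 1 library kept the call at 3 hpa in all 6 fits and ended that at 60 mpa in all 6 (0.0538 to 0.431). The call at 90 mpa was lost without 0 mpa B (0.144) or 90 mpa A (0.0963).

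The BAG protein bag4.L, known in mammals as a silencer of death domains that binds Hsp70 and a death receptor, was called at 5 times. It was at 17, 14.6 and 25.4 CPM at 0 mpa, 44.3, 74.2 and 69.8 at 60 mpa, 70.8, 93.8 and 81.4 at 90 mpa and 91.2, 86 and 107 at 3 hpa. At 6 hpa it was 51.8, 54.2 and 124 CPM and at 1 dpa 45.4, 117 and 42, the high value being 6 hpa C and 1 dpa B, both among the 5 shallow or low-complexity libraries. At each of these 5 times the groups did not overlap. Fitted log2 fold changes were 1.72 ± 0.40 at 60 mpa (adjusted p = 0.0082), 2.11 ± 0.41 at 90 mpa (0.000405), 2.31 ± 0.40 at 3 hpa (4.26e-05), 1.97 ± 0.41 at 6 hpa (0.00078) and 1.84 ± 0.40 at 1 dpa (0.00186). The calls from 90 mpa to 6 hpa held in each of their 6 fits without 1 library. The one at 60 mpa did not without 0 mpa A (0.0911), 0 mpa B (0.132), 60 mpa B (0.0668) or 60 mpa C (0.0516), and the one at 1 dpa fell to 1.20 without 1 dpa B (0.0945). The copy bag4.S read 20.2, 11.8 and 21.8 CPM at 0 mpa and 21.7, 14.4 and 17.9 at 3 hpa, a log2 fold change of 0.01 with a 95% interval of -1.05 to 1.06.

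The co-chaperone bag3.L, which works with Hsp70 and small heat shock proteins in autophagy of damaged proteins, was first called at 3 hpa. It was at 51.3, 56.9 and 65 CPM at 0 mpa, 66.4, 76.6 and 84.7 at 60 mpa, 153, 183 and 193 at 3 hpa and 125, 191 and 147 at 6 hpa. The mean at 90 mpa was already 118 CPM (SD 38.8), beside 57.7 at 0 mpa, without a call. At 1 dpa it was still at 144, 175 and 88.9 CPM, and every library from 3 hpa to 1 dpa exceeded those at 0 mpa. The log2 fold change was 1.61 ± 0.35 at 3 hpa (adjusted p = 0.00152), 1.42 ± 0.35 at 6 hpa (0.00764) and 1.24 ± 0.35 at 1 dpa (0.0228). The call at 3 hpa held in all 6 fits without 1 library. At 6 hpa it was lost without 0 mpa A (0.0769), 0 mpa B (0.0576) or 6 hpa B (0.0743), and at 1 dpa without 0 mpa A (0.132), 0 mpa B (0.109), 0 mpa C (0.0543), 1 dpa A (0.0906) or 1 dpa B (0.146). Between 3 and 7 dpa bag3.L fell by 1.48 on the log2 scale (SE 0.38, adjusted p = 0.0386, with 0.849% of all genes called in that step). The copy bag3.S passed the joint test (adjusted p = 0.000366, kept in each of 27 fits without 1 library) but no single time. It was at 52.8, 22.9 and 50.2 CPM at 0 mpa and 91.9, 88.4 and 104 at 3 hpa, a log2 fold change of 1.17 ± 0.37 (adjusted p = 0.0671, and 1.19 with 0.000771 without the 5 libraries).

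**Figure D3:**
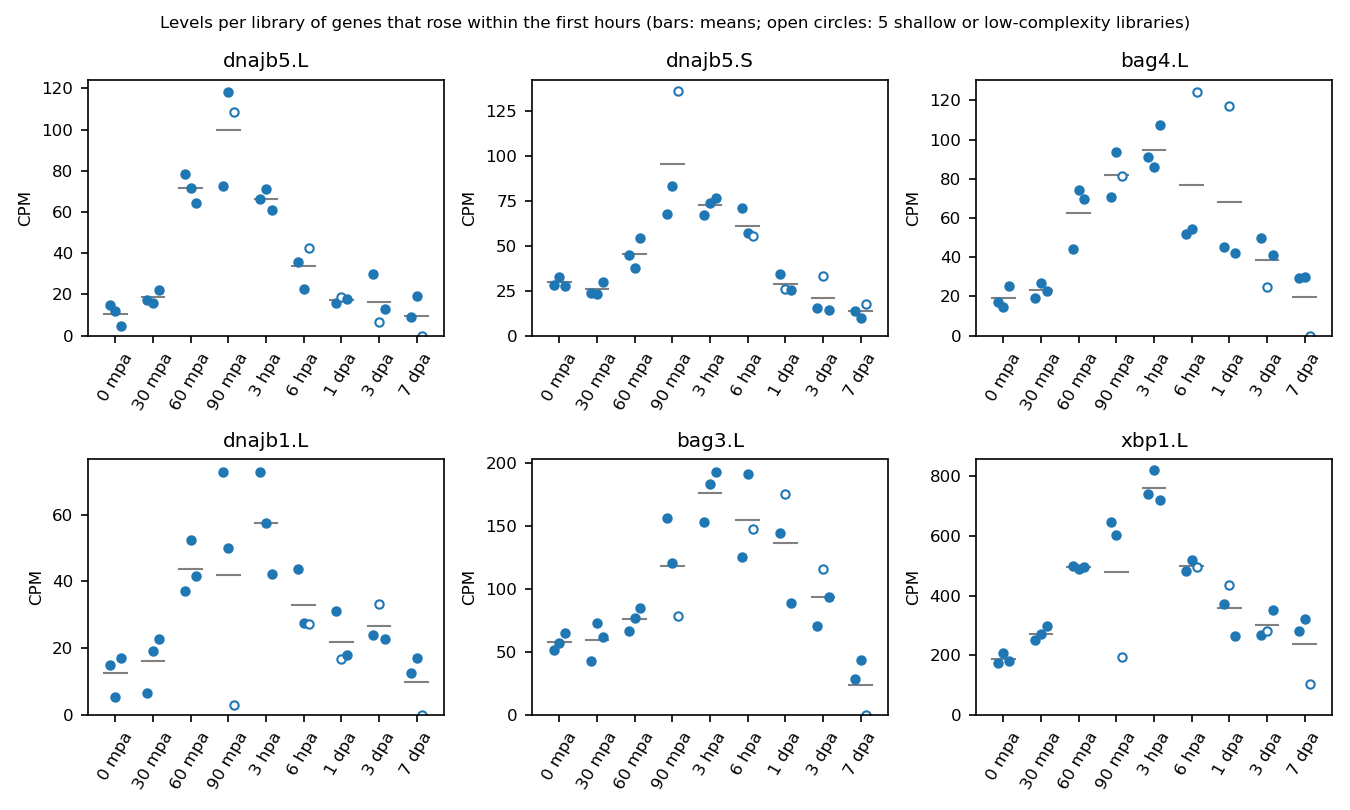
Level per library (CPM) at the 9 times of dnajb5.L, dnajb5.S, bag4.L, dnajb1.L, bag3.L and xbp1.L; circles are the 3 libraries of a time, open where the library is 1 of the 5 shallow or low-complexity ones, and bars are means. For dnajb5.L the 3 libraries at 60 mpa lie between 64.4 and 78.7 CPM, above the 4.52 to 14.6 CPM at 0 mpa; for xbp1.L the 3 hpa libraries lie between 719 and 820 CPM.

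The Hsp110 gene hsph1.S, whose protein releases nucleotide from Hsp70, was called at 7 dpa alone. There library C read 363 CPM from a total of 19187 counts, while A and B read 27.2 and 35.5 and the 0 mpa libraries 12.9, 7.55 and 15.1. The groups did not overlap, and the fitted change was 6.49-fold (SE 0.74 on the log2 scale, adjusted p = 0.0175), with a log2 value that became 1.43 without 7 dpa C (0.0676). It was also not called without 0 mpa A (0.0549) or 0 mpa B (0.0845), and without 7 dpa A or 7 dpa B it was up to 3.52. With the 5 shallow or low-complexity libraries left out, hsph1.S was higher at 90 mpa (1.89 ± 0.35, adjusted p = 0.000128), 3 hpa (1.80 ± 0.32, 5.33e-05), 6 hpa (1.64 ± 0.35, 0.000869), 1 dpa (1.24 ± 0.35, 0.0142) and 7 dpa (1.42 ± 0.34, 0.00221). Its libraries at 3 hpa read 32.5, 52.7 and 38.2 CPM, above those at 0 mpa. The copy hsph1.L was not called at any time, with 15.8, 18.4 and 12.5 CPM at 3 hpa and 5.76, 16.9 and 10.5 at 0 mpa.

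The J-domain protein dnaja1.L, a partner of cytosolic Hsp70, was called higher at 3 dpa. Its libraries read 21.4, 24.7 and 30.1 CPM at 0 mpa and 45.5, 103 and 53.3 at 3 dpa, where the highest was the low-complexity 3 dpa B. The groups did not overlap, and the log2 fold change was 1.40 ± 0.38 (adjusted p = 0.0109). Without 3 dpa B it was 0.92 (0.199), and it was not called without 0 mpa A (0.0758) or 0 mpa B (0.0566) either. Leaving out all 5 gave 0.97 ± 0.27 (0.0101). The copy dnaja1.S, at 14.4, 6.29 and 1.51 CPM at 0 mpa and 12.3, 6.81 and 17 at 3 dpa, was not called. The cysteine string protein gene dnajc5g.L passed the joint test (adjusted p = 0.0345) and no single time, with 101, 76.2 and 95.2 CPM at 0 mpa and 160, 278 and 156 at 1 dpa (log2 fold change 1.12 ± 0.37, adjusted p = 0.066). That joint call was lost in 14 of 27 fits without 1 library (adjusted p up to 0.0936, without 1 dpa B), which left out 0 mpa A, B or C, 30 mpa A or C, 60 mpa B, 3 hpa B or C, 6 hpa C, 1 dpa A or B, 3 dpa A or C, or 7 dpa A. Its copy dnajc5g.S read 106, 84 and 122 CPM at 0 mpa and 149, 170 and 158 at 1 dpa and was not called.

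The constitutive chaperones did not pass the test. The Hsc70 gene hspa8.L read 216, 318 and 248 CPM at 0 mpa and 399, 413 and 319 at 3 hpa, a log2 fold change of 0.53 ± 0.34 (95% interval -0.15 to 1.22, adjusted p = 0.646). Each 3 hpa library lay above all 3 at 0 mpa. Here and elsewhere such a separation of 3 libraries from 3 describes the values and is no test. How many of all genes were so separated is not given. In the fit without the 5 libraries hspa8.L was higher at 1 dpa (0.81 ± 0.22, adjusted p = 0.0114) and at 3 dpa (0.78 ± 0.22, 0.00934). The Hsp90 beta gene hsp90ab1.S read 1461, 1526 and 1526 CPM at 0 mpa and 1686, 2020 and 1965 at 3 hpa, a log2 fold change of 0.33 (95% interval -0.45 to 1.11, adjusted p = 0.878), again without overlap.

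The genes of the classic heat shock response were chosen for description after their values were seen. Stress-inducible hsp70.L had 14 reads in the 27 libraries together, in 4 of them, and hsp30c.L, an amphibian small heat shock gene, had 4 reads in 2. The copy hspa1a.S had 32 reads in all and hsp30d.L 72, and neither passed the filter. Of these inducible genes hspa1a.L alone passed it, with 174 reads in all, between 0 and 26 per library and at most 5.77 CPM, and was not called. Reads of near-identical Hsp70 copies may have been counted elsewhere or dropped, and hspa1l.S, a gene of the same family, had 173829 reads. It was at 1644 to 1994 CPM at 0 mpa (mean 1821) and was not called at any later time by edgeR. Its mean was lower at every later time, between 1513 CPM at 90 mpa and 1176 at 7 dpa.

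In the ER class, xbp1.L, the transcription factor gene whose mRNA Ire1 splices, was called at 4 times. Its libraries read 174, 209 and 183 CPM at 0 mpa, 251, 271 and 297 at 30 mpa, and 500, 490 and 496 at 60 mpa. At 3 hpa they read 742, 820 and 719 CPM and at 6 hpa 483, 519 and 494, clear of the 0 mpa range. At 90 mpa libraries A and B read 646 and 603 CPM and the shallow C 193, within the range of 0 mpa. The log2 fold change was 1.39 ± 0.36 at 60 mpa (adjusted p = 0.0232), 1.37 ± 0.36 at 90 mpa (0.0166), 2.01 ± 0.36 at 3 hpa (7.12e-05) and 1.40 ± 0.36 at 6 hpa (0.0101). The call at 3 hpa held in all 6 fits without 1 library, and that at 60 mpa in 0 of 6 (0.0762 to 0.196). The one at 90 mpa was lost without 0 mpa A (0.104), 0 mpa B (0.058), 0 mpa C (0.0736), 90 mpa A (0.0734) or 90 mpa B (0.0787), and the one at 6 hpa without 0 mpa A (0.0841) or 0 mpa C (0.0614). From 3 hpa to 3 dpa xbp1.L came down again, to 269, 282 and 353 CPM (log2 difference -1.34 ± 0.35, adjusted p = 0.0107, a comparison chosen after the values were seen that called 6.24% of all genes). Without the 5 libraries it was above 0 mpa at all 7 times from 60 mpa on, by 0.70 ± 0.19 still at 7 dpa (adjusted p = 0.00536).

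Its copy xbp1.S read 165, 132 and 162 CPM at 0 mpa and 273, 270 and 244 at 3 hpa. The groups did not overlap, but the log2 fold change of 0.78 ± 0.34 did not pass (adjusted p = 0.317). When the 5 libraries were left out, xbp1.S was called higher at 60 mpa (0.77 ± 0.17, adjusted p = 0.00375), 90 mpa (0.76 ± 0.19, 0.00647), 3 hpa (0.79 ± 0.17, 0.00106) and 6 hpa (0.72 ± 0.19, 0.0102). The change of the S to L ratio, tested within libraries, was -1.23 ± 0.27 on the log2 scale at 3 hpa (adjusted p = 0.0122), so xbp1.L rose more than xbp1.S. That test called 1 of 44 pairs of copies, against 0.898% of 5791 pairs of all genes, and was lost without 0 mpa A (0.0944), 0 mpa C (0.0757), 3 hpa A (0.0551), 3 hpa B (0.0821) or 3 hpa C (0.0853). The copies are similar in sequence, and the counting may have assigned reads of one to the other.

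Over the 9 times jointly 0 of the 44 pairs changed their S to L ratio by edgeR's quasi-likelihood test, against 4.32% of all pairs, and 5 had an unadjusted p under 0.05. Without the 5 libraries 6 pairs did, against 10% of all pairs. Those were xbp1, bag4, dnajb5, atf4, bag3 and hspb1. In that fit the ratio of bag4 had moved by -2.31 ± 0.36 at 3 hpa (adjusted p = 0.000121) and that of dnajb5 by -2.27 ± 0.40 at 60 mpa (0.00194), in both towards the L copy. With all libraries the same 2 changes were -2.31 ± 0.69 (0.128) and -2.28 ± 0.55 (0.0917).

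Of the other response factors, atf4.L, the translationally controlled arm below Perk, read 893, 912 and 1018 CPM at 0 mpa and 1370, 1390 and 1328 at 3 hpa. The 3 hpa libraries lay above, yet the log2 fold change of 0.53 ± 0.36 was not called (adjusted p = 0.681), and without the 5 libraries it was 0.55 ± 0.16 (0.0225). The copy atf4.S read 333, 286 and 280 CPM at 0 mpa and 332, 307 and 291 at 3 hpa. The membrane-bound factor atf6.L read 48.2, 34.7 and 40.3 CPM at 0 mpa and 53.7, 49.1 and 149 at 6 hpa, with the highest value in 6 hpa C, and had the lowest p of the atf4 and atf6 copies there (0.99 ± 0.37, adjusted p = 0.157). For atf6.S the libraries read 17, 5.28 and 13.4 CPM at 0 mpa and 17.7, 17 and 30.5 at 6 hpa. None of the 4 copies was called at any of the 8 times.

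The gene of the pro-apoptotic factor Chop, ddit3, was read little. Its copy ddit3.S stood at 0, 0.503 and 0.431 CPM at 0 mpa, 2.89, 7.68 and 1.64 at 60 mpa and 3.16, 3.06 and 4.29 at 3 hpa. At 60 mpa and at 3 hpa every library was above those at 0 mpa. At 3 dpa it had 0 reads in 3 libraries, which allows up to 0.18 CPM. It passed the joint test (adjusted p = 0.0313) and no single time (the lowest adjusted p was 0.228), and the joint call was lost without 60 mpa B (0.0814), 3 hpa C (0.0611), 3 dpa A (0.071), 3 dpa C (0.0661) or 7 dpa A (0.0523). The copy ddit3.L read 0, 0.503 and 1.08 CPM at 0 mpa and 3.84, 5.47 and 3.32 at 3 hpa (log2 fold change 2.92 ± 1.40, adjusted p = 0.376).

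None of the 29 tested ER chaperone and disulfide isomerase genes was called, jointly or at any time, by edgeR's quasi-likelihood test. Of all genes tested, 15.8% were called jointly and 0.377% (30 mpa) to 9.22% (3 dpa) at a single time. Jointly 0 of the 29 had an unadjusted p under 0.05, and at each single time at most 1 did. Over all genes that share was 25.8% jointly and 3.7% (30 mpa) to 21.4% (3 dpa) at a single time. DESeq2 called 1 jointly (hsp90b1.S) and 0 at each time. In time order from 30 mpa, their median log2 fold change was 0.16, 0.23, -0.13, 0.20, 0.15, 0.02, 0.18 and 0.001. Above 0 were 19, 22, 12, 19, 18, 16, 18 and 15 of the 29. Over all genes tested the median was -0.09 at 90 mpa, -0.02 at 3 hpa and 0.05 at 3 dpa, and 10862 of 22268 were above 0 at 3 hpa. Without the 5 libraries calr.S, dnajb9.S and pdia5.S were called in at least 1 test, each of them jointly (adjusted p = 0.00392, 0.0406 and 0.00116). In that fit calr.S was lower at 1 dpa (-0.57 ± 0.18, adjusted p = 0.0417). With all libraries, the mean of dnajb9.S was highest at 3 hpa, at 19 CPM against 8.89 at 0 mpa. That of pdia5.S was highest there too, at 75.2 CPM against 49.2.

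For the ER Hsp70 hspa5 (BiP), the copy hspa5.S read 355, 159 and 277 CPM at 0 mpa and 274, 576 and 432 at 3 hpa. These groups overlapped (log2 fold change 0.70, 95% interval -0.07 to 1.46, adjusted p = 0.518). For hspa5.L the values were 160, 84.3 and 127 CPM at 0 mpa and 114, 191 and 150 at 3 hpa (0.29, interval -0.39 to 0.98). The ER Hsp90 hsp90b1.L (Grp94) read 108, 82 and 106 CPM at 0 mpa and 78.3, 166 and 113 at 3 hpa (0.27, interval -0.50 to 1.04), again overlapping. Its copy hsp90b1.S read 87.8, 45 and 58.6 CPM at 0 mpa and 55.3, 74.2 and 59.3 at 3 hpa, and 484 CPM in the very shallow 7 dpa C beside 62.1 and 58.6 in A and B.

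The lectin chaperones calreticulin and calnexin, which fold glycoproteins, were not called. Calreticulin's calr.S read 1150, 924 and 1163 CPM at 0 mpa and 987, 1186 and 966 at 3 hpa, and calr.L 566, 457 and 592 against 513, 652 and 572. Calnexin's canx.L read 446, 426 and 429 CPM at 0 mpa and 376, 464 and 408 at 3 hpa, and canx.S 36.5, 35 and 36.6 against 32.5, 36.3 and 25.8. All 4 overlapped with their baseline. Over the 8 copies of hspa5, hsp90b1, calr and canx and the 7 times from 30 mpa to 3 dpa, the log2 fold changes lay between -0.60 and 0.70, and the 95% intervals between -1.81 and 1.68. The intervals bound a change at 3 hpa, the time of the highest xbp1.L, to between -1.22 and 1.46 over these 8 copies.

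**Figure D4:**
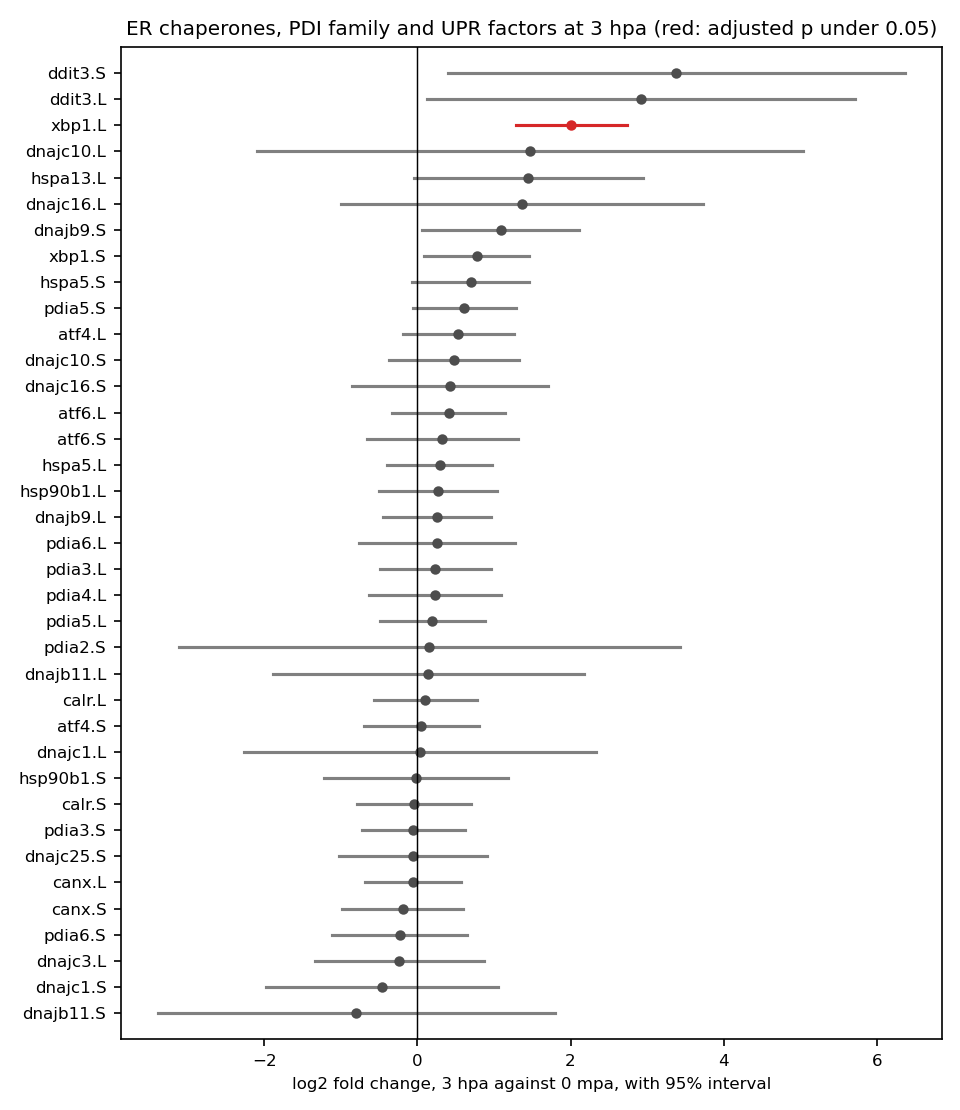
Log2 fold change at 3 hpa against 0 mpa with its 95% interval for the 37 tested ER genes, ordered by size; red marks an adjusted p under 0.05. The xbp1.L interval, 1.29 to 2.73, is the red one, and the intervals of hspa5, hsp90b1, calr and canx copies span 0.

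Of the 7 small heat shock genes tested, 2 were called lower and 1 higher, each at 3 and 7 dpa. The actin- and filament-binding chaperone hspb1.S (Hsp27) read 43.7, 74.5 and 63.7 CPM at 0 mpa, 47.2, 69.4 and 21.5 at 1 dpa, 14.9, 7.98 and 15.5 at 3 dpa and 17.1, 6.37 and 34.6 at 7 dpa. At 3 and 7 dpa each library was below all at 0 mpa, with log2 fold changes of -2.24 ± 0.42 (adjusted p = 8.93e-05) and -2.28 ± 0.48 (0.000555). The call at 3 dpa held in all 6 fits without 1 library, and the joint one in all 27. At 7 dpa the change was -1.69 without 7 dpa B (0.0875) and -2.97 without 7 dpa A. The step from 1 to 3 dpa passed by itself (-1.84 ± 0.41, adjusted p = 0.0135, with 0.723% of all genes called). The copy hspb1.L read 36.9, 33.2 and 40.9 CPM at 0 mpa and 22.2, 35.4 and 28 at 3 dpa and was not called.

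The gene hspb8.L, whose protein is a partner of Bag3, read 46.8, 44 and 23.9 CPM at 0 mpa, 8.39, 5.06 and 11.6 at 3 dpa and 8.54, 6.37 and 0 at 7 dpa. The groups did not overlap at 3 dpa (log2 fold change -2.19 ± 0.68, adjusted p = 0.0345) or at 7 dpa (-2.40 ± 0.77, 0.0464). The 0 of 7 dpa C comes from a total of 19187 counts and adds little to the separation at 7 dpa. The call at 3 dpa was lost without 0 mpa A (0.111), 0 mpa B (0.104), 3 dpa A (0.0966), B (0.142) or C (0.0552), and that at 7 dpa without 0 mpa A (0.128), 0 mpa B (0.116), 7 dpa A (0.176), B (0.275) or C (0.0867). Both passed without the 5 libraries (-1.93 ± 0.38, 0.000185; -2.33 ± 0.39, 1.01e-05), and so did 60 mpa (-1.48 ± 0.33, 0.00276), 3 hpa (-1.26 ± 0.32, 0.00597) and 1 dpa (-1.14 ± 0.36, 0.0373). The copy hspb8.S read 27.6, 16.6 and 21.1 CPM at 0 mpa and 5.13, 0.779 and 17.6 at 3 dpa (-1.47 ± 0.59, adjusted p = 0.113).

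The co-chaperone bag2.L, which in mammals inhibits the ubiquitin ligase Chip, read 40.1, 41.5 and 21.8 CPM at 0 mpa, 13, 0.444 and 10.5 at 1 dpa and 7.46, 5.26 and 5.29 at 3 dpa. No library at these 2 later times reached the lowest at 0 mpa. It had changed by a log2 value of -2.09 ± 0.59 at 1 dpa (adjusted p = 0.0228) and -2.51 ± 0.60 at 3 dpa (0.00293), and the second stood in all 6 fits without 1 library. At 1 dpa it was lost without 0 mpa A (0.0922), 0 mpa B (0.108) or 1 dpa B (0.133), and its joint call was lost without 0 mpa A or B (0.0921 and 0.0991). With those 5 left out bag2.L was lower at 6 of the 8 times, first at 60 mpa (-1.25 ± 0.36, adjusted p = 0.041), and at 3 dpa by -2.41 ± 0.44 (6.21e-05).

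The muscle small heat shock gene hspb6.L (Hsp20) went the other way. It had 3 reads at 0 mpa, all in library A, 155 at 3 dpa and 84 at 7 dpa. By library the level was 2.8, 22 and 4.7 CPM at 3 dpa and 5.27, 6.8 and 0 at 7 dpa, against 0.72, 0 and 0 at 0 mpa. The groups were apart at 3 dpa and overlapped at 7 dpa. Scaled by library, the ratio of reads to 0 mpa was 39.6 at 3 dpa (95% exact counting interval 13.3 to 194) and 25.6 at 7 dpa (8.46 to 127), intervals that cover counting error only. Against the same 3 reads, the ratio was already 8.18 at 30 mpa (2.54 to 41.9). Up to 1 dpa it lay between 5.43 at 3 hpa (1.59 to 28.8) and 19.3 at 1 dpa (6.35 to 95.4), and no time before 3 dpa was called. Library 3 dpa B held 113 of the 155 reads at 3 dpa, and without it the ratio at 3 dpa was 15.5 (4.96 to 78.2). Without 0 mpa A the baseline had 0 reads, and the level was at least 26.7-fold higher at 3 dpa and 17.2-fold at 7 dpa against a floor of 3 counts over the group. The test called both (adjusted p = 0.00774 and 0.0338). The call at 3 dpa was lost without 0 mpa B (0.058), 0 mpa C (0.0546) or 3 dpa B (0.102), and that at 7 dpa without 0 mpa B (0.148), 0 mpa C (0.153), 7 dpa A (0.0763) or 7 dpa B (0.12). The joint call (0.0427) was lost without the 5 libraries (0.334) and without 0 mpa B or C, 30 mpa A, 3 hpa A or C, 6 hpa A, 3 dpa B, or 7 dpa A, B or C (0.0534 to 0.263). Without the 5 libraries the call at 3 dpa was lost (adjusted p = 0.06) and that at 7 dpa held (0.0219).

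Beside the falls called from 1 to 7 dpa stood the muscle markers, of which 21 of 22 were lower at 3 dpa and at 7 dpa, with acta1.L and myoz1.L at 0 reads at 7 dpa. Erythroid markers were lower too, 7 of 10 at 3 dpa and 8 at 7 dpa. Their summed level was 992.9 to 4863 CPM at 0 mpa and 1430, 1011 and 242.2 at 7 dpa. The last value is that of 7 dpa C and is lowered by its TMM factor. The part of these tissues in the fall of hspb1.S, hspb8.L, bag2.L and the mitochondrial genes was not tested.

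**Figure D5:**
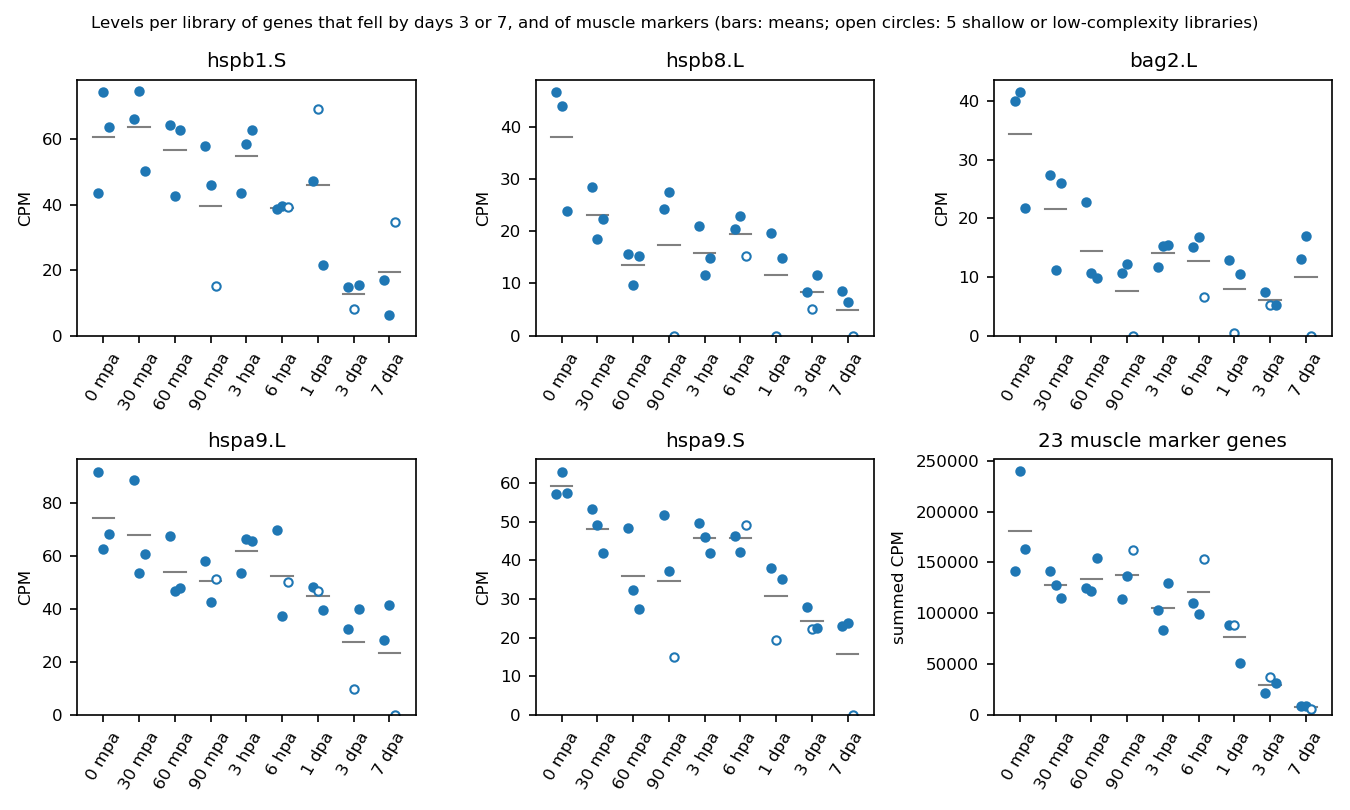
Level per library (CPM) at the 9 times of hspb1.S, hspb8.L, bag2.L, hspa9.L and hspa9.S, and the summed level of the 23 muscle marker genes; circles are libraries, open for the 5 shallow or low-complexity ones, and bars are means. For hspb1.S the 3 dpa libraries lie between 7.98 and 15.5 CPM and the 0 mpa libraries between 43.7 and 74.5. The muscle sum falls to 6367 to 9298 CPM at 7 dpa, lowest in 7 dpa C.

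The mitochondrial Hsp70, hspa9 (mortalin), which pulls proteins into the organelle, fell in both copies. For hspa9.L the libraries read 91.9, 62.7 and 68.5 CPM at 0 mpa and 32.5, 9.93 and 40 at 3 dpa, and for hspa9.S 57.1, 62.9 and 57.5 against 27.8, 22.2 and 22.5. At 7 dpa hspa9.S read 23.1, 23.9 and, in the shallow C, 0 CPM. The 3 dpa libraries of both copies lay below those at 0 mpa. The log2 fold change was -1.43 ± 0.38 for hspa9.L at 3 dpa (adjusted p = 0.00902), -1.29 ± 0.37 for hspa9.S at 3 dpa (0.0164) and -1.41 ± 0.41 for hspa9.S at 7 dpa (0.0175). The call of hspa9.L was lost without 0 mpa A (0.0661) or 3 dpa B (0.105). The call of hspa9.S at 3 dpa was lost without 0 mpa B (0.0611), 3 dpa B (0.0565) or 3 dpa C (0.0639), and at 7 dpa without 0 mpa B (0.0568), 7 dpa A (0.111) or 7 dpa B (0.0978). Its joint call was lost in 19 of 27 fits without 1 library (0.051 to 0.118), and stood without 60 mpa A, any 1 library of 90 mpa, 6 hpa C, 1 dpa A or B, or 7 dpa C. Without the 5 libraries both copies were lower at 3 dpa and at 7 dpa (adjusted p = 0.000295 to 0.00764).

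The Hsp60 chaperonin gene hspd1.L passed the joint test (adjusted p = 0.0255) and no single time. It read 138, 106 and 125 CPM at 0 mpa, 76.6, 37.9 and 39.2 at 90 mpa and 67.6, 72.8 and 32.7 at 6 hpa, below the baseline at both times (log2 fold change -1.22 ± 0.38, adjusted p = 0.0592, and -1.06 ± 0.37, 0.106). The joint call was lost without 0 mpa A, 30 mpa A, 30 mpa C or 90 mpa B (0.0555 to 0.114). Its copy hspd1.S read 40.1, 38.8 and 44.6 CPM at 0 mpa and 20, 48 and 3.02 at 90 mpa. Over the 14 mitochondrial genes tested, 13 had a log2 fold change below 0 at 3 dpa and at 7 dpa, with medians of -0.81 and -0.74 beside 0.05 and -0.01 over all genes, and 2 and 1 were called. Earlier medians were below 0 too, with 0 called. They were -0.21 at 30 mpa (6 of 14 above 0), -0.31 at 60 mpa (2) and -0.64 at 90 mpa (3). At 3 hpa, 6 hpa and 1 dpa they were -0.36 (1), -0.47 (2) and -0.85 (2). Over all genes the medians at these times were -0.09 to 0.02.

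Other genes of the heat shock pathway, from a list of 36 names, gave 50 tested genes that are not among the 135. Of these 7 changed jointly (14%, against 15.8% of all genes). Those called per time numbered 0, 2, 3, 2, 4, 4, 6 and 4 in time order from 30 mpa, at most 12% (3 dpa, where 9.22% of all genes were called). Without the 5 libraries 18 of 50 changed jointly (36%, background 27.2%). The autophagy receptor sqstm1.L (p62) read 55.9, 61.4 and 99.3 CPM at 0 mpa and 293, 313 and 297 at 3 hpa, without overlap, a log2 fold change of 2.06 ± 0.37 (adjusted p = 8.8e-05). Heme oxygenase, which breaks down heme, rose from 6 hpa on in both copies; hmox1.L read 6.96, 7.3 and 6.89 CPM at 0 mpa and 43.3, 25.7 and 47 at 3 dpa (2.45 ± 0.49, adjusted p = 0.000293), and hmox1.S 0.24, 1.26 and 1.51 against 17.4, 15 and 16.5 (3.98 ± 0.82, 0.000361). The groups of both copies were apart. The collagen chaperone serpinh1.L (Hsp47) read 23.8, 32.7 and 23.9 CPM at 0 mpa and 82.8, 63.9 and 86.5 at 60 mpa (1.54 ± 0.38, adjusted p = 0.015). Its copy serpinh1.S, at 147, 213 and 201 CPM at 0 mpa, read 424, 489 and 447 at 30 mpa and 71.3, 65.2 and 56 at 3 hpa, and was called higher at 60 mpa and lower at the 5 times from 3 hpa. Without the 5 libraries both copies were called at 30 mpa as well (serpinh1.L 1.02 ± 0.25, adjusted p = 0.0223, and serpinh1.S 1.27 ± 0.18, 4.46e-06). Both serpinh1 copies are among the 7 joint calls of this list. They were not counted among the 29 ER chaperone and disulfide isomerase genes, of which none was called.

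The myosin chaperone unc45b.S read 28.8, 19.4 and 14.4 CPM at 0 mpa and 0.155, 0 and 0.979 at 3 dpa (log2 fold change -5.73 ± 1.20, adjusted p = 0.0013), while 7 dpa C read 190 CPM beside 3.56 and 7.24. The small heat shock protein gene cryab.L had 0 reads at 0 mpa and 102 at 3 dpa, at 6.21, 5.65 and 6.46 CPM, and was at least 26.1-fold higher against a floor of 3 counts over the group. It was called there (adjusted p = 0.00972) and at 7 dpa, where it was at least 11.9-fold higher. At 7 dpa the groups overlapped through the shallow C, at 0 CPM beside 3.28 and 2.32 in A and B.

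Of 86 tested genes on a list of the ER stress pathway, 4 changed jointly (4.65%, against 15.8% of all genes). The calls per time numbered 0, 0, 1, 1, 3, 1, 3 and 2 in time order from 30 mpa, at most 3.49% (6 hpa and 3 dpa, where 3.66% and 9.22% of all genes were called). In the fit without the 5 libraries 14 of 88 changed jointly (15.9%, background 27.2%). The sensor gene eif2ak3.S (Perk) read 8.88, 8.81 and 6.68 CPM at 0 mpa and 33.9, 23.4 and 23.4 at 3 hpa (log2 fold change 1.73 ± 0.50, adjusted p = 0.0315), without overlap. At 6 hpa sec61a1.L, the channel through which proteins enter the ER, read 232, 225 and 363 CPM against 134, 112 and 117 at 0 mpa (1.17 ± 0.33, adjusted p = 0.0274). The groups did not overlap, and the high value was that of 6 hpa C. The transcription factor creb3.S read 45.6, 55.1 and 73.7 CPM at 0 mpa and 112, 114 and 235 at 6 hpa, again highest in 6 hpa C (1.38 ± 0.36, adjusted p = 0.0138). Its groups did not overlap there, and without the 5 libraries the change was 0.96 ± 0.22 (0.00195). The gene edem3.S, whose protein trims sugars of misfolded glycoproteins, read 1.44, 5.79 and 4.95 CPM at 0 mpa, 14.2, 15.1 and 24.1 at 90 mpa, 9.83, 18.1 and 21.8 at 6 hpa and 16.7, 13 and 0 at 7 dpa. Of these 3 later times the last alone overlapped with 0 mpa, through the shallow 7 dpa C. All 3 were called (2.03 ± 0.58, adjusted p = 0.0331; 1.99 ± 0.57, 0.0287; 1.76 ± 0.58, 0.0462), and also without the 5 libraries. For creb3l2.S the rise at 3 dpa was 1.18 ± 0.37 (adjusted p = 0.0306). The matrix-secretion factor creb3l1.L fell from 42.9, 40.8 and 52.8 CPM at 0 mpa to 0.832, 9.32 and 2.67 at 1 dpa (-3.45 ± 0.60, adjusted p = 0.000106, and -4.65 ± 0.61 without the 5 libraries, where the value of 1 dpa B, 9.32 CPM, is left out). Fits without 1 library were not run for the genes of these 2 lists.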

How the data were processed

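Gene counts of 27 libraries, whole numbers as the authors deposited them, were analysed. A second table, of normalized values, was not used here. Software named in the submitters' processing notes was HTSeq 0.6.1p1, STAR 2.7.9a, R 4.1.0 and DESeq2 1.32.0, without saying what each did. Genome build, annotation and strandedness of counting: not given in the sources used here. Reads of overlapping or antisense genes therefore cannot be told apart. Each library was made, per the labels' protocols, from 100 ng of total RNA and sequenced as paired reads of 76 bases. All 135 symbols matched NCBI's RefSeq table of assembly v10.1, used for names alone.

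The test was edgeR's quasi-likelihood test (edgeR 4.0.16, R 4.3.3, robust, TMM scaling, prior count 0.125), in 1 fit of all 27 libraries with time as the group. The filterByExpr filter with a count minimum of 10 kept 22268 genes. P-values were adjusted by Benjamini-Hochberg over all genes within each comparison, with a threshold of 0.05, and errors of log2 fold changes are standard errors (SE). Each later time was compared with 0 mpa and with the time before it. Copies were compared by a fit of the S to L ratio with the library as block, over pairs in which both copies passed the filter. A CPM value is a count divided by the library total and its TMM factor, times 1000000. No molecular identifiers are recorded, and an interval from counts therefore covers counting error alone. Levels are not per gene length, so they are not compared between genes. The scripts were tested on simulated data.

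The members, lists and tests were chosen with earlier results of these data known. Described in full were called genes with a mean of at least 5 CPM at their highest time, ranked by the size of their change (up to 14 cytosolic, 14 ER and 3 mitochondrial), their other copies, and every copy of hspa5, hsp90b1, calr, canx, xbp1, atf4, atf6, ddit3, hspa8 and hsp90ab1, and up to 6 genes of each of the 2 pathway lists. The marker lists were muscle, leukocyte, erythroid, neural, epidermis, notochord and cartilage, and other organs. Neural markers summed to 69.21 to 164.1 CPM over all libraries, notochord and cartilage markers to 2232 to 12840 and other organs to 0 to 45.24. The values 69.21 and 2232 are those of 7 dpa C and are lowered by its TMM factor. The value 45.24 is that of the shallow 90 mpa C, and the next highest was 6.655 in 1 dpa B. The 1 tested gene of the other organs was called higher at 90 mpa. Alternatives were RLE scaling, no filter, DESeq2 1.42.0, the letters A to C as a block, the 6 libraries of a comparison alone, fits without the shallow libraries, and fits without each library in turn. For a call at a time, only the fits without a library of that time or of 0 mpa were counted. The counts of the 2 pathway lists without the 5 libraries, and the hspb6.L ratios without a library, were added after the data were seen.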

Additional observations from a re-analysis of the deposited data

How the results depend on the processing

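Counts of called chaperone genes are given first as reported. With all libraries but the 5 shallow or low-complexity ones, the joint count went from 15 to 28, and the counts from 60 mpa to 7 dpa became 7, 12, 14, 10, 12, 16 and 17, while 27.2% of all genes were called jointly and 3.2%, 8.15%, 8.94%, 6.95%, 8.7%, 15.5% and 15.4% at those times. Without 90 mpa C and 7 dpa C alone they were 9, 10, 9, 12 and 11 from 90 mpa to 3 dpa. Fitting the 6 libraries of a comparison alone gave 2 at 90 mpa, 20 at 3 hpa and 11 at 7 dpa. With no filter on low counts there were 9 at 90 mpa and 5 at 1 dpa, and DESeq2 gave 6 at 1 dpa. Cytosolic genes called in any test numbered 13, against 20 in the fits of 6 libraries and 23 without the 5 libraries. ER chaperone and disulfide isomerase genes numbered 0, against 1 in the fits of 6 libraries (pdia5.S), with no filter (hsp90b1.S), by DESeq2 (hsp90b1.S) or without 90 mpa C and 7 dpa C (pdia5.S), and 3 without the 5 libraries. Pairs of copies called jointly went from 0 to 6 without the 5 libraries (4.32% and 10% of all pairs). For the other fits of this paragraph, and for counts in any test, the share of all genes is not given. Those counts cannot show whether a fit called more chaperone genes or more genes of every kind.

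Leaving out each library in turn gave, over 27 fits, 11 to 19 genes jointly and 10 to 16 cytosolic genes in any test. ER chaperone and isomerase genes numbered 0 there, and pairs 0 to 2. The share of all genes called in the fits without 1 library is not given either. For each time, 6 fits were counted, without a library of that time or of 0 mpa. In time order from 30 mpa they gave 0 in each fit, 1 to 2, 3 to 7, 5 to 6, 2 to 4, 1 to 3, 2 to 6 and 1 to 4. Of 35 calls of a gene at a time, 12 were lost in none of their 6 fits and 23 in at least 1. None of the results changed direction under any setting run. Joint calls lost under other settings were dnajc5g.L (adjusted p = 0.0574) and hspb6.L (0.0538) by RLE scaling, hspa9.S with no filter (0.0712), and hspb6.L without 90 mpa C and 7 dpa C (0.0662) or without the 5 libraries (0.334). Calls at a time lost by a change of scaling, filter, tool or fit were dnajb1.L at 60 mpa by RLE scaling (adjusted p = 0.0627) and DESeq2 (0.0711), hspb8.L at 7 dpa by RLE scaling (0.0547), dnajb5.S at 3 hpa (0.0527) and 7 dpa (0.0717) with no filter, and, in the fits of 6 libraries, dnajb1.L (0.324), dnajb5.S (0.0785) and xbp1.L (0.119) at 90 mpa and bag2.L at 1 dpa (0.131). RLE in place of TMM scaling moved the median log2 fold change of all genes by -0.10 at 60 mpa and 3 hpa, -0.15 at 6 hpa and -0.12 at 1 dpa.

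With the letters as a replicate block, 15 genes were called jointly and 0, 4, 6, 6, 4, 3, 7 and 6 at the 8 times. Deviations of libraries of the same letter had correlations of -0.149 to 0.198 (median 0.00413, 8 of 108 over 0.1). For libraries of different letters they were -0.215 to 0.193 (median -0.00268, 7 of 216 over 0.1). Such values cannot show whether a letter marks a shared clutch or batch, which the labels do not state. Moving 6 gene names whose proteins face the cytosol into the ER class made 59 cytosolic and 47 ER genes tested. It left 11 cytosolic and 2 ER genes called jointly. As none of the moved genes was called jointly, the move could not change these counts. Depth limits 7 dpa C most, in which 29 of the 135 genes had a read.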
